A study of Chromochloris zofingiensis with 38 samples.

Results

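Wild-type cells of the unicellular green alga Chromochloris zofingiensis were treated for 1 h with AZD, named in the study's description as its means of TOR inhibition, and their mRNA was compared with that of cells that received the addition labelled S for the same time. The comparison took every library with these labels, 3 of AZD and 4 of S, out of 38 in the series. All libraries were wild type. The other libraries at 1 h were 4 each of None, Glu (glucose) and GA, and the same 5 labels were sampled at 24 h. Neither S nor GA is spelled out in the labels, which also give no dose, solvent, light or growth medium. S is therefore called by its label, and whether it is the solvent of AZD could not be read from the labels. Per the labels' protocol, 50 mL of culture was pelleted and frozen for each RNA sample. The labels do not state whether the replicates are separate cultures. A p-value here reflects the spread between samples within groups, pooled over all 10 groups of the series, and that spread may be technical.

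TOR, the target of rapamycin, is a conserved protein kinase that in algae and plants works in a complex with the partner proteins RAPTOR and LST8. When nutrients and energy are plentiful it promotes protein synthesis, ribosome production and growth and holds back autophagy. C. zofingiensis is known for making the carotenoid astaxanthin and storage lipids, and for switching off photosynthesis when it is fed glucose. The count table identifies genes by ID alone and does not pair them with names or products. The transcripts below are therefore described by level, by size of change and by their behaviour in other comparisons, and no pathway was counted.

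Library totals ran from 18346886 to 43409648 estimated counts in AZD and from 19520295 to 40200478 in S, out of a range of 12414643 to 106150532 over the series. The 100 most abundant genes of each library held 25.9% ± 1.15 of its counts in AZD (SD, n = 3) and 25.4% ± 1.93 in S (n = 4). S lay near None: their group means differed by 0.337 on the log2 scale, as a root mean square over 12142 genes, against 1.04 between AZD and S. In the quasi-likelihood test of edgeR, with p-values adjusted by Benjamini-Hochberg, S differed from None in 8 of 12142 genes (0.0659%), and in 77 (0.635%) without S replicate 1.

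S replicate 1, the deepest S library, stood apart from the other S libraries. Its distance from the mean of the other 3 was 0.753 on the same measure, against 0.467 to 0.50 for each other S library and 0.435 to 0.580 for the AZD libraries. Among 8987 genes of at least 10 CPM (the count unit scaled to library depth), it was at least 2-fold above the other S libraries in 155 genes and at least 2-fold below them in 601. The other S libraries, each set against the remaining pair, were past 2-fold in at most 3 genes above and 9 below. The deviation of S replicate 1 leaned slightly away from the AZD response. Its least-squares slope on the AZD minus None difference was -0.10 over 12142 genes, with a Pearson r of -0.14, where a positive slope would mean a shift toward AZD. The slopes of the other S libraries ran from 0.00284 to 0.0624. For slopes and distances each S library was set against the mean of the others, S replicate 1 included. The slopes therefore balance by construction, and those of the other libraries are not independent of that of S replicate 1. Genes are not independent replicates, and no p is attached to such values.

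The deviation of S replicate 1 resembled that of Glu replicate 4 at 1 h from its own group, with a Pearson r of 0.52 across the 12142 genes. The 2 libraries share no group, and each was the deepest of its group. Glu replicate 4 held 94879574 estimated counts, against 23139762 to 44185725 in the other Glu libraries at 1 h. Of the 155 genes that were higher in S replicate 1, 76 were also at least 2-fold higher in Glu replicate 4, against 242 of all 8987 genes. Of the 601 that were lower, 172 were also lower there, against 368 of all 8987. On the third principal component of the 19 libraries at 1 h, S replicate 1 scored 45.3 and Glu replicate 4 scored 63.7, and the other 17 lay between -21.7 and 15.4. The labels name no batch within 1 h, and the source of this shared deviation was not tested. The results that rest on the S group are therefore also given without S replicate 1, where it could change them.

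**Figure D1:**
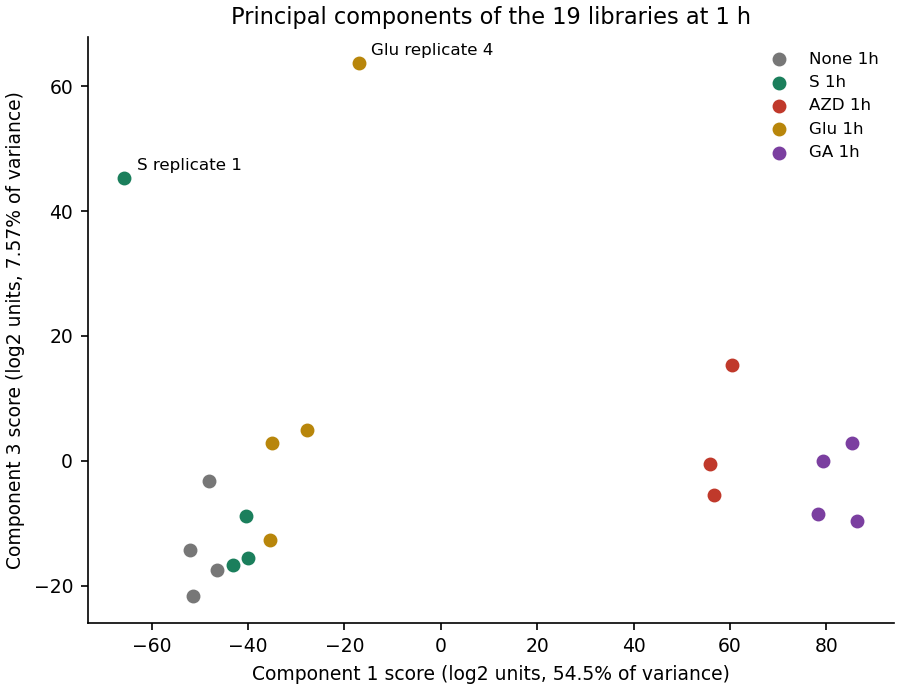
Scores of the 19 libraries at 1 h on principal components 1 (x axis, 54.5% of variance) and 3 (y axis, 7.57%), in log2 units, coloured by group, 1 point per library. The AZD libraries scored 56.0 to 60.4 on component 1 and the S libraries -65.6 to -40.0, with S replicate 1 at the far end from AZD, while S replicate 1 and Glu replicate 4 stood alone at the top of component 3.

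At 1 h a large share of the genes tested differed in level between AZD and S. Of 12142 genes, 6549 (53.9%) were called changed at an adjusted p under 0.05 by edgeR's quasi-likelihood test, of which 3447 (28.4%) were higher in AZD and 3102 (25.5%) lower. In 3356 genes (27.6%) every AZD library lay above every S library, and in 2865 (23.6%) every AZD library lay below. Called genes without overlap between the libraries numbered 2972 (24.5%) higher and 2698 (22.2%) lower.

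Most of these changes were moderate, and more of those of at least 4-fold were falls than rises. The median log2 fold change of the risen genes was 0.83 and that of the fallen -0.96, beside 0.08 over all genes tested. A change of 2-fold or more was reached by 1281 risen genes (10.6%) and 1479 fallen genes (12.2%). A change of 4-fold or more was reached by 224 risen (1.84%) and 492 fallen genes (4.05%). Of these, 59 risen and 182 fallen genes passed 8-fold, and 14 risen and 58 fallen genes passed 16-fold. Past 32-fold there were 9 risen and 24 fallen genes. Falls thus outnumbered rises at each of these sizes with all libraries. Without S replicate 1, scaling factors kept, 242 risen and 437 fallen genes passed 4-fold, and 73 and 156 passed 8-fold. In the same fit 30 risen and 47 fallen genes passed 16-fold. Past 32-fold there were then 20 of each, so no excess of falls was left at that size. Rises of this size rest on low counts in S. The 14 rises past 16-fold with all libraries had a median of 1.05 CPM there. UNPLg00290, at 1.19 CPM in AZD, passed 32-fold only once its S group held no count.

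Which direction held more of the called genes was not stable, and moved with the scaling, the filter, the libraries in the fit and the test. TMM factors, used throughout, gave a share of 52.6% rising. Library totals alone moved the median over all genes to -0.26 and left 27.0% of 6197 called genes rising. With TMM, the share was 44.97% with no filter on low counts, 46.1% with a filter of 1 CPM, 45.8% with only the compared groups in the fit, 43.5% with only the 1 h libraries and 45.6% in a test against a 1.5-fold change. Relative to each scaling's own median, the counts at 4-fold or more were 187 up and 537 down with TMM and 182 up and 558 down with totals. Falls thus outnumbered rises at this size with either scaling.

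**Figure D2:**
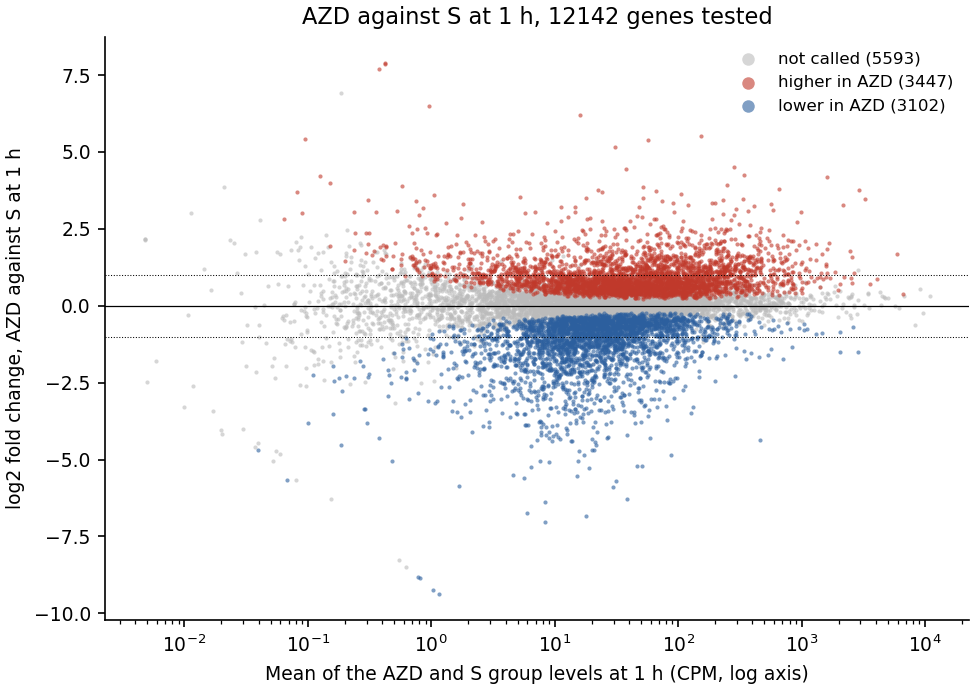
The log2 fold change of AZD against S at 1 h (y axis) by the mean of the AZD and S group levels (x axis, CPM, log scale), 1 point per gene for 12142 genes, coloured by call, with dotted lines at 2-fold. The 492 falls of at least 4-fold outnumber the 224 rises of that size, and lie mostly at middle levels.

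Falls were called most often in the middle of the range of levels, and rises most often among the most abundant transcripts. Genes were split into 5 classes of equal size by their mean level in None at 1 h, libraries that the comparison did not use. In the highest class, from 75.0 to 8932.75 CPM, 38.9% were called higher in AZD and 21.0% lower, against 28.4% and 25.5% of all genes. In the middle class, from 18.9 to 36.2 CPM, the order was the other way, with 25.0% higher and 34.2% lower. In the lowest class, up to 7.21 CPM, 23.8% were higher and 13.4% lower, where fewer counts give the test less power. The filter on low counts looked at all groups, so a gene low in None could be kept through its level in AZD. Genes in this class, down to 0 CPM in None, also had little room to fall. The excess of rises in this class and its median are therefore not read as a result. Median log2 fold changes from the lowest to the highest class were 0.22, 0.01, -0.07, 0.03 and 0.22. Without S replicate 1, scaling factors kept, they were 0.30, 0.05, -0.04, 0.04 and 0.19. These shares and medians rest on TMM factors. Library totals alone moved the median over all genes from 0.08 to -0.26, so the direction of the class medians depends on the scaling.

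The changes were spread over the whole set of gene IDs. Among the 20 ID prefixes with at least 20 tested genes, the share called changed ran from 44.4% (UNPL) to 57.5% (Cz15). Their median log2 fold changes ran from 0.02 (Cz01) to 0.23 (Cz15), beside 0.08 over all genes. Of 9190 pairs of genes with consecutive ID numbers, 9.28% rose together and 8.48% fell together. Of 5728 pairs that stood 10 steps apart, 8.19% rose together and 6.42% fell together. Whether IDs next to each other overlap or share reads was not checked, since no annotation was used.

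The 4 genes named here had the largest fold changes, 2 in each direction, among called genes without overlap and with at least 10 CPM in the higher group. Cz03g37180 stood at 29.2, 36.2 and 29.0 CPM in the AZD libraries and at 0.541, 0.395, 0.397 and 0.281 CPM in the S libraries, in replicate order. The 2 groups were far apart, with little spread inside either. Its log2 fold change was 6.20 ± 0.33 (SE), a 73.7-fold rise with an adjusted p of 8.18e-17 (edgeR), and 6.35 (adjusted p 3.54e-15) without S replicate 1. The S group held 51 counts of this gene in all, so the fold from summed counts was 72.6 with an exact 95% counting interval of 55.1 to 97.8.

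Cz07g24100 was abundant under AZD and low in every S library. It stood at 322, 325 and 255 CPM in AZD and at 6.79, 7.95, 5.08 and 6.51 CPM in S. The log2 fold change was 5.51 ± 0.17 (SE), a 45.7-fold rise with an adjusted p of 4.89e-23 in edgeR. Without S replicate 1 it was 5.44 (adjusted p 7.69e-21). Its level in None was 5.73 ± 0.135 CPM (SD, n = 4), inside the range of S.

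Both named falls were nearly complete within the hour. Cz07g15250 stood at 0, 0.343 and 0 CPM in AZD and at 23.2, 14.6, 14.4 and 14.5 CPM in S. Its 10 counts under AZD all came from replicate 2, and S replicate 1 was the highest S library. The log2 fold change was -7.04 ± 0.44 (SE) with an adjusted p of 3.14e-15 in edgeR, and -6.93 (adjusted p 3.84e-15) without S replicate 1. Without AZD replicate 2 the AZD group held no count, and the fitted value of -12.22 is then no bound. From summed counts the gene was 147-fold lower, with an interval of 79.8 to 307.

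Cz07g04070 stood at 0.344, 0.308 and 0.241 CPM in AZD, 25 counts in all, and at 45.0, 35.4, 28.2 and 32.3 CPM in S. The highest AZD library was thus far below the lowest S library. The log2 fold change was -6.83 ± 0.30 (SE) with an adjusted p of 7.56e-19 in edgeR, and -6.78 without S replicate 1. From summed counts it was 121-fold lower, with an interval of 81.7 to 187.

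**Figure D3:**
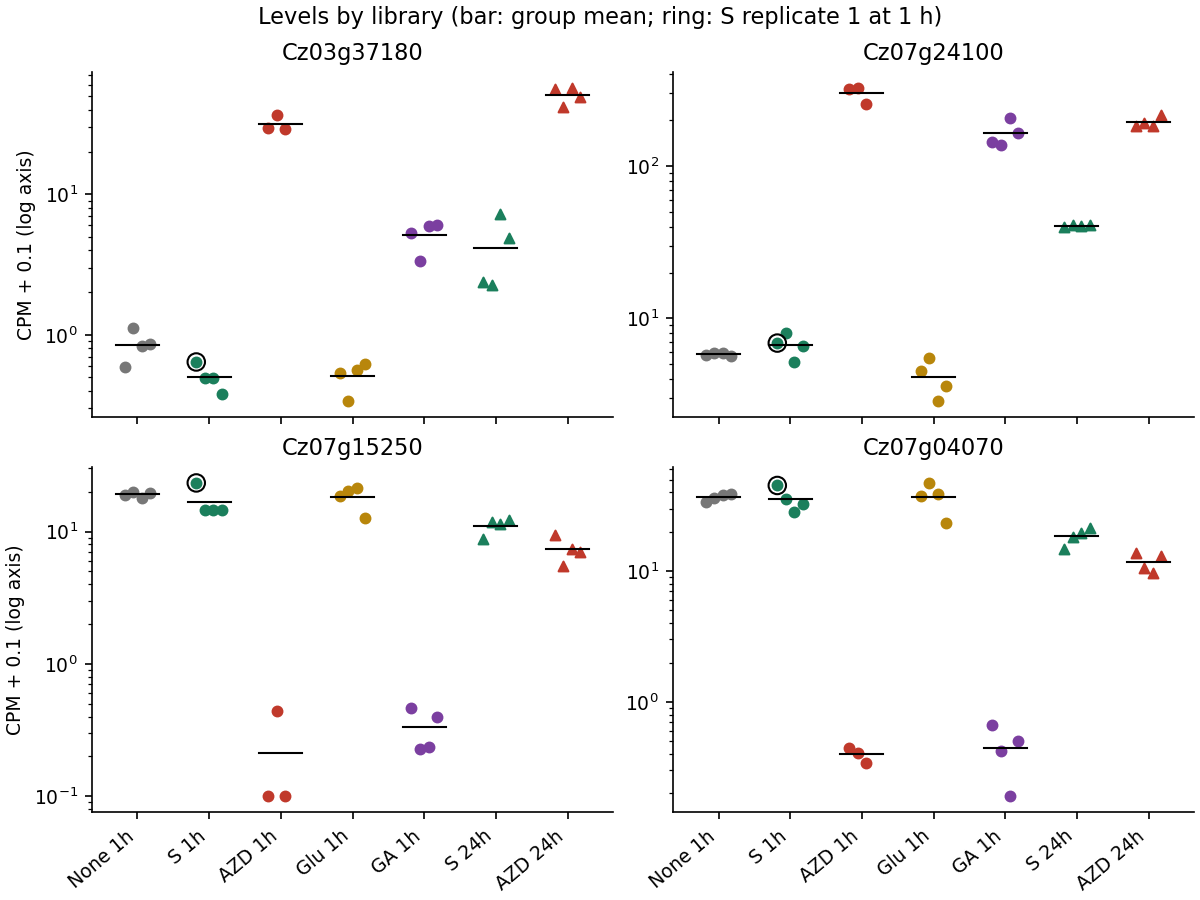
Levels of the 4 genes in each library of the AZD, S, None, Glu and GA groups at 1 h (circles) and the AZD and S groups at 24 h (triangles), as CPM + 0.1 on a log axis, with a bar at each group mean and a ring around S replicate 1 at 1 h. For each gene the AZD libraries at 1 h lie apart from all S and None libraries, with GA on the side of AZD, and at 24 h the 2 falling genes are back within a factor of 2 of S.

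Transcripts that passed from clearly present to almost absent were few. In 10 genes every S library was at 10 CPM or more and every AZD library under 1 CPM, and 1 gene showed the opposite, with the same counts when S replicate 1 was left out.

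The response was seen without S replicate 1. With that library left out and the scaling factors of the others kept, 6276 genes (51.7%) were called, 3299 higher (27.2%) and 2977 lower (24.5%). Of the 3447 rises, 3062 (88.8%) were called again in the same direction, as were 2802 (90.3%) of the 3102 falls. No gene called in both fits changed direction. The log2 fold changes of the fits, which share all their other libraries, had a median shift of 0.00123.

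Recomputing the scaling factors without S replicate 1 moved the zero line, by a median of -0.09 on the log2 scale. Then 6199 of 12127 genes (51.1%) were called, 2813 higher (23.2%) and 3386 lower (27.9%), which kept 2703 (78.4%) of the rises and 2970 (95.7%) of the falls, again with none reversed. The share of called genes that rose was 45.4% in this fit and 52.6% with the factors kept or with all libraries. Of the 224 rises of at least 4-fold, 220 were called in the same direction without S replicate 1, and of the 492 falls, 476.

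S replicate 1 lay somewhat more often on the side of the other S libraries away from AZD. Among the 3299 genes called higher in AZD without it, S replicate 1 lay above all other S libraries in 1143 and below all of them in 1436. Among the 2977 called lower, it lay above in 1278 and below in 1054. Leaving it out moved the number of at least 16-fold changes from 14 up and 58 down to 30 up and 47 down with the factors kept, and the number of rises of that size therefore rested on this library.

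The 2 called genes whose fold change moved most without S replicate 1 were both rare. UNPLg00290 stood at 0.581, 0, 0 and 0 CPM in S and at 1.55, 0.925 and 1.08 CPM in AZD. Its log2 fold change was 2.59 (adjusted p 0.00579, edgeR). Without S replicate 1 the S group held no count, and the gene was at least 27.3-fold higher in AZD against a floor of 3 counts over the group. Cz02g05050 stood at 0.541 CPM in S replicate 1, with 27 counts, and at 0 in every other S library and every AZD library. It was called lower in AZD (adjusted p 0.0458) through that library alone, and without it both groups were at 0.

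**Figure D4:**
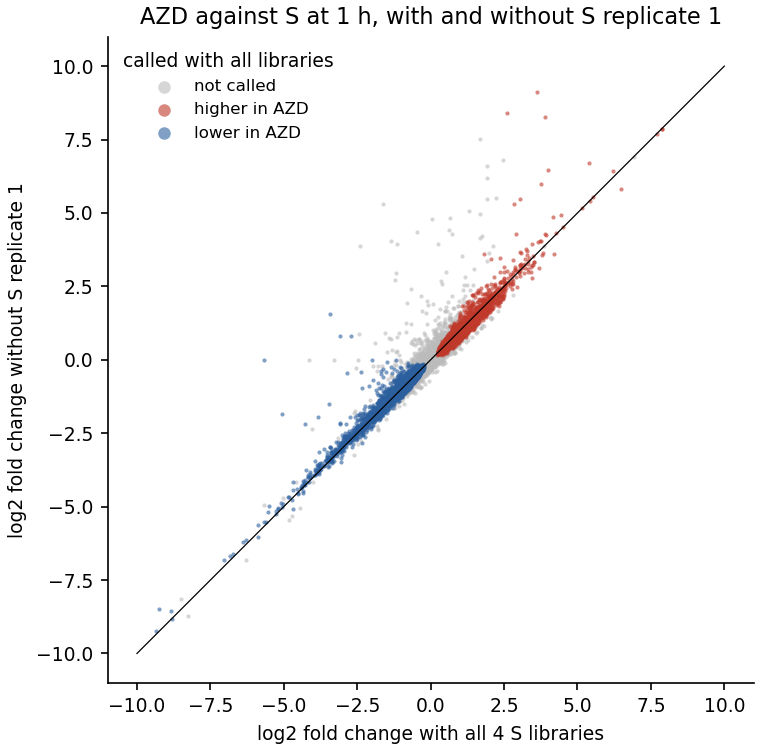
The log2 fold change of AZD against S at 1 h with all 4 S libraries (x axis) and without S replicate 1, scaling factors kept (y axis), 1 point per gene, coloured by the call with all libraries, with the line of equality. Of 3447 rises and 3102 falls, 3062 and 2802 were called in the same direction again, and the points that leave the line are mostly uncalled genes.

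GA against Glu at 1 h offers a comparison that shares no library with AZD against S. What GA holds is not stated in the labels. In edgeR, 7083 of 12142 genes (58.3%) were called in GA against Glu. Of the 3447 genes that rose in AZD against S, 2619 (76.0%) also rose in GA against Glu, which is 68.3% of the 3836 rises there. Of the 3102 that fell, 2436 (78.5%) also fell, which is 75.0% of the 3247 falls there. With all libraries, 11 genes were called higher for AZD but lower for GA, and 30 had the reverse calls. These opposite calls numbered 26 and 69 without S replicate 1, factors recomputed. In that fit 69.6% of the AZD rises and 77.6% of the falls were shared. Keeping the factors gave 19 and 69 opposite calls, with 74.5% and 76.6% shared. Dropping Glu replicate 4 as well as S replicate 1 gave 14 and 58, with 78.0% and 77.4% shared.

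The fold changes of these comparisons had a Pearson r of 0.81 and a Spearman rho of 0.81 over 12142 genes, as a description with no p. S replicate 1 and Glu replicate 4, which deviate alike, are each a control library in one of them. Without S replicate 1, r and rho were both 0.75, and without that pair of libraries they were 0.77 and 0.79. The groups' distance was 1.06 for GA and Glu, close to the 1.04 for AZD and S.

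The largest early changes were shared almost entirely. Of the 224 genes that rose at least 4-fold in AZD against S, 210 rose in GA against Glu, none fell and 14 were not called, where 31.6% of all genes rose. Of the 492 that fell at least 4-fold, 467 fell, 2 rose and 23 were not called, where 26.7% of all genes fell. The median log2 fold change of the risen genes was 2.43 in AZD against S and 2.25 in GA against Glu, and that of the fallen genes -2.69 and -2.64. In levels, the median of the fallen genes was 21.2 CPM in S, 21.9 in None and 20.3 in Glu, against 2.82 in AZD and 2.49 in GA. For the risen genes it was 15.8 CPM in S, 15.3 in None and 13.0 in Glu, against 106 in AZD and 74.2 in GA.

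Both named falls were also seen in GA against Glu. Cz07g15250 stood at 0.232 ± 0.120 CPM in GA and 18.2 ± 3.87 in Glu (SD, n = 4 each), and Cz07g04070 at 0.344 ± 0.199 and 36.8 ± 9.89. Cz07g24100 rose to 163 ± 30.8 CPM in GA from 4.02 ± 1.13 in Glu. Cz03g37180 reached 5.06 ± 1.25 CPM in GA from 0.411 ± 0.121 in Glu. Its log2 fold change of 3.59 there was smaller than the 6.20 in AZD against S, with an adjusted p of 0.000922 for the difference in edgeR.

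A direct test of the difference, GA minus Glu less AZD minus S, called 798 genes (6.57%), 468 with the more positive change in GA against Glu (3.85%) and 330 with the more negative (2.72%). With library totals alone as the scaling, 757 genes were called and the more positive share was 36.2% in place of 58.6%. This count moved strongly with single libraries. Without S replicate 1, 1825 genes (15%) were called, and without it and Glu replicate 4, 1540 (12.7%). Leaving out AZD replicate 3 gave 299, S replicate 3 gave 359, S replicate 4 gave 371 and GA replicate 1 gave 472, so the size of this count is uncertain. 

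The genes with the largest differences did not share one pattern. Cz14g19080 rose in GA (65.7 ± 27.5 CPM) over Glu (14.9 ± 6.27), and stood at 42.0 ± 9.03 CPM in AZD (n = 3) and 68.0 ± 34.0 in S (n = 4). The difference of the log2 changes was 2.83 ± 0.52 (SE), adjusted p 0.00118 in edgeR. S replicate 1, at 22.5 CPM, lay below the other S libraries, which averaged 83.2 CPM, and without it the difference was 3.11.

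Cz06g18050 also rose in GA, to 10.2 ± 4.13 CPM against 2.04 ± 0.884 in Glu, 1.90 ± 0.300 in AZD and 2.17 ± 0.712 in S. Its difference was 2.47 ± 0.47 (SE), adjusted p 0.00151 in edgeR. Cz02g20050 fell further in GA than in AZD. It stood at 0.102 CPM in GA, 10 counts in 1 library, against 5.77 ± 1.43 in Glu, and at 3.39 ± 0.651 in AZD against 14.5 ± 5.59 in S, a difference of -3.61 ± 0.62 (SE), adjusted p 0.000711 in edgeR.

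Cz07g13110 rose in both comparisons and more strongly in AZD. It stood at 61.1, 68.3 and 49.2 CPM in AZD and at 1.68, 3.06, 0.714 and 1.31 CPM in S, against 8.81 ± 4.24 in GA and 1.71 ± 1.26 in Glu. The log2 fold change was 5.16 ± 0.52 (SE) in AZD against S and 2.48 in GA against Glu, a difference of -2.68 ± 0.69 (SE), adjusted p 0.0188 in edgeR.

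**Figure D5:**
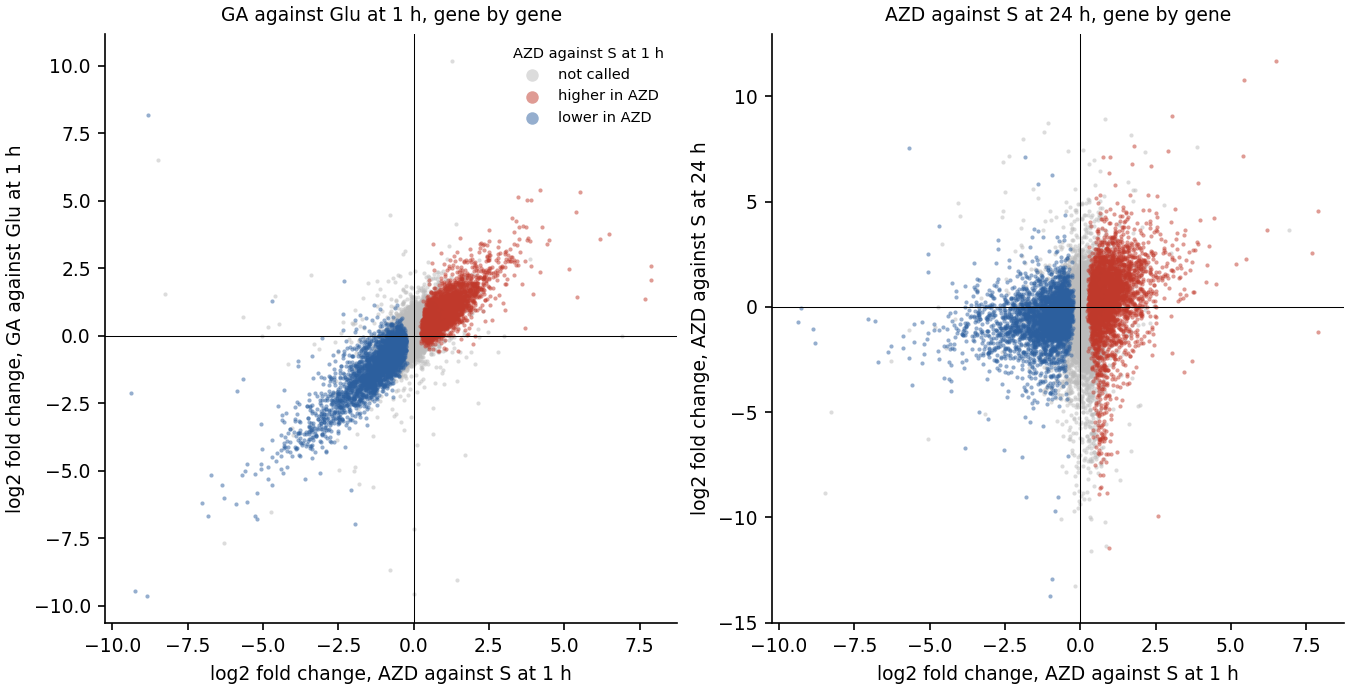
The log2 fold change of AZD against S at 1 h (x axis of both panels) beside that of GA against Glu at 1 h (left) and of AZD against S at 24 h (right), 1 point per gene, coloured by the call at 1 h. The points follow a rising band on the left (r 0.81) and spread out on the right (r 0.24), where a tail of genes that fell steeply at 24 h sits slightly above zero on the x axis.

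After 24 h the AZD response was wider and in large part a different one. AZD against S at 24 h shares no library with the comparison at 1 h. The sample titles carry another prefix at 24 h than at 1 h, and an effect of time and one of prefix cannot be told apart. In edgeR, 8823 genes (72.7%) were called at 24 h, and the distance between the group means was 1.71, against 1.04 at 1 h. Pearson's r between the fold changes at the 2 times was 0.24 and Spearman's rho 0.32 over 12142 genes, and 0.25 and 0.32 without S replicate 1 at 1 h.

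Of the 3447 genes that rose at 1 h, 1902 (55.2%, or 46.1% of the 4124 rises at 24 h) also rose at 24 h, and 800 fell. Of the 3102 that fell at 1 h, 1811 (58.4%, or 38.5% of the 4699 falls at 24 h) also fell, and 509 rose. Without S replicate 1, factors kept, 753 early rises fell at 24 h and 494 early falls rose. With factors recomputed these were 539 and 686, so their order depended on the scaling. The shares that kept their direction were then 61.9% of the early rises and 54.9% of the early falls. A test of the difference between the responses, 24 h less 1 h, called 7170 genes (59.1%), and 7347 (60.6%) without S replicate 1. With all libraries the change was more positive at 24 h in 3482 genes (28.7%) and more negative in 3688 (30.4%). Without S replicate 1, factors recomputed, it was more positive in 4130 (34.1%) and more negative in 3217 (26.5%). The more positive share was 48.6% in the main fit, 53.7% with DESeq2 and 57.8% with library totals alone. Which direction held more genes was therefore not stable. Of the 7170 genes, 2900 were called at 24 h only and 1078 at 1 h only. Both times were called in 1792 in the same direction and in 1309 in opposite directions. Among the early rises, 2194 (63.6%) differed by time, 1496 of them toward a smaller or reversed change and 698 toward a larger rise. Among the early falls, 1985 (64.0%) differed, 1541 toward a smaller or reversed change and 444 toward a deeper fall.

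The largest early changes had mostly kept their direction at 24 h and shrunk in size. Of the 224 early rises of at least 4-fold, 170 were higher at 24 h, 16 lower and 38 not called, where 34% of all genes rose, and their median log2 fold change went from 2.43 to 1.66. Of the 492 early falls of at least 4-fold, 322 were lower, 50 higher and 120 not called, where 38.7% of all genes fell, and their median went from -2.69 to -0.96. The median level of these 492 genes under AZD was 2.82 CPM at 1 h and 11.2 CPM at 24 h, while in S it was 21.2 and 20.3 CPM. Genes chosen for a large change in one set of libraries tend to show a smaller one in another, and the part of this in the medians at 24 h was not tested.

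The 4 named genes followed that course. Cz07g15250 stood at 7.24 ± 1.64 CPM in AZD and 10.9 ± 1.56 in S at 24 h, a log2 fold change of -0.59 (adjusted p 0.0319, edgeR). Cz07g04070 stood at 11.6 ± 1.93 and 18.4 ± 2.90 CPM, a log2 fold change of -0.66 (adjusted p 0.00151, edgeR). The rises were larger than these falls at 24 h. Cz03g37180 stood at 50.9 ± 7.07 CPM in AZD and 4.07 ± 2.34 in S, and Cz07g24100 at 194 ± 15.8 and 40.2 ± 0.501, with log2 fold changes of 3.64 and 2.27. For both, S was higher at 24 h than at 1 h, a difference that was not tested because of the prefix.

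Few of the steepest falls at 24 h were falls at 1 h. Of the 369 genes (3.04%) at least 16-fold lower in AZD at 24 h, 38 (10.3%) were lower at 1 h, 91 (24.7%) were higher and 240 were not called, against 25.5% lower and 28.4% higher among all genes. Their median log2 fold change at 1 h was 0.32, with quartiles of -0.15 and 0.62. Their median level in S was 16.4 CPM at 1 h and 27.6 CPM at 24 h, and in AZD at 24 h it was 0.523 CPM. Without S replicate 1, 41 were lower and 76 higher with the factors kept, and 47 lower and 52 higher with factors recomputed.

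In GA against Glu at 1 h, 141 of the same 369 genes were higher and 23 lower, where 31.6% of all genes were higher and 26.7% lower. The 125 genes (1.03%) at least 16-fold higher at 24 h stood otherwise at 1 h, with 52 (41.6%) higher, 5 (4%) lower and a median log2 fold change of 0.66, where 28.4% of all genes were higher and 25.5% lower at that time. They were rare early, with a median level of 1.97 CPM in S and 2.98 CPM in AZD at 1 h, and 1.06 and 52.2 CPM at 24 h.

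Single genes show how far the times could part. Cz02g20090 was called lower at 1 h, at 5.30 ± 0.854 CPM in AZD and 10.7 ± 2.67 in S. At 24 h it stood at 0 in all 4 AZD libraries and at 47.9 ± 3.92 CPM in S, at least 1896-fold lower against a floor of 3 counts over the group, and the adjusted p of the difference between the times was 3.59e-18 in edgeR. UNPLg00298 did not pass the test at 1 h, at 17.5 ± 2.02 CPM in AZD and 19.9 ± 10.4 in S. At 24 h it was at 0 in all 4 AZD libraries and at 35.0 ± 18.2 CPM in S, at least 1328-fold lower (adjusted p of the difference 2.69e-10, edgeR).

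The reverse course was seen in Cz14g24260, which had 5 counts in AZD and 17 in S at 1 h and stood at 26.2 ± 5.68 CPM in AZD at 24 h, against 7 counts in S. The late fold from summed counts was 457, with an interval of 222 to 1138, and the adjusted p of the difference was 2.87e-07 in edgeR, or 0.0147 without S replicate 1. Cz01g44090 stood at 8.85 ± 0.962 CPM in AZD at 1 h, and in S at 112, 5.28, 6.11 and 6.32 CPM. S replicate 1 alone was high, as was Glu replicate 4 with 371 CPM. At 24 h the gene stood at 150 ± 18.1 CPM in AZD and 0.586 ± 0.243 in S. The difference of the log2 changes between the times was 9.86 ± 1.58 (SE), adjusted p 2.21e-06 in edgeR, and 7.56 without S replicate 1.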

How the data were processed

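Poly(A) RNA was sequenced as read pairs and quality-trimmed, per the labels' protocols. Salmon and DESeq2 1.46.0 are listed in the submitters' processing notes, which do not say what each did. The deposited table holds estimated counts per gene, not scaled for depth. The genome build, annotation and strandedness of the counting are not given in the sources read. Near-identical or overlapping genes may share reads.

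Estimated counts were rounded and tested with edgeR 4.0.16 in R 4.3.3, after filterByExpr (minimum count 10, minimum total 15) and TMM scaling. Of 12459 genes, 48 had no count and 12142 were tested. These held at least 99.998% of each library's counts. One quasi-likelihood model with a mean for each of 10 groups was fitted to 38 libraries (28 residual degrees of freedom). P-values were adjusted over all tested genes, with a threshold of 0.05. The procedure was tested on simulated data. SE was approximated from the fold change and its F statistic. Distances and principal components were computed on log2 CPM (prior count 2). Intervals are exact at 95% and, like the floor of 3 counts, cover counting error only, since amplified fragments are not independent molecules. In the table, 0 columns belonged to other samples.

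The comparison, the lists and the rules were chosen with earlier results of these data known. Named genes had an adjusted p under 0.05, at least 10 CPM in the highest group and, for AZD against S, no overlap between libraries. The 2 largest in each direction are named for each test, with the 2 called genes that moved most without S replicate 1. Alternatives were other scalings, filters, sets of libraries in the fit, a replicate block, DESeq2 1.42.0, limma 3.58.1 (voom), a test against a 1.5-fold change, None as control and each library left out. Leaving out S replicate 1 with factors kept, and with Glu replicate 4, was added after seeing the data. All 9 replicate pairs within AZD and S differed by more than counting error, with chi-square values of 7.39 to 309 per degree of freedom.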

Additional observations from a re-analysis of the deposited data

Results flagged for a closer look

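Single libraries that stood far from the rest of their group were looked for in 85 groups of 4 values or more, and 14 were found, where chance gives about 1 in 20 groups. S replicate 1 at 1 h gave 6 of them and Glu replicate 4 gave 2. These tallies cannot be read against chance, since S replicate 1 was known to stand apart, and UNPLg00290 and Cz02g05050 were named because they moved most without it. Where all other libraries of a group are at 0, any count at all is flagged, so the 1 in 20 does not hold there. The distance of S replicate 1 to the rest of its group was 0.753, against 0.467 to 0.50. In S replicate 1, Cz07g15250 stood at 23.2 CPM (14.4 to 14.6 in the other S libraries), Cz01g44090 at 112 (5.28 to 6.32), Cz02g20050 at 22.8 (11.0 to 12.8), UNPLg00290 at 0.581 and Cz02g05050 at 0.541, the latter pair at 0 in the others. In Glu replicate 4, Cz01g44090 stood at 371 CPM (4.99 to 8.51) and Cz02g05050 at 0.581 (0 to 0.0296).

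The remaining such values were small or in other groups. Cz01g44090 stood at 5.06 CPM in None replicate 3 at 1 h (6.17 to 6.33) and at 0.224 in S replicate 1 at 24 h (0.681 to 0.738). UNPLg00298 stood at 35.6 CPM in Glu replicate 2 at 1 h (15.3 to 15.7). In GA at 1 h, where the other libraries were at 0, Cz14g24260 stood at 0.0638 CPM in replicate 2, Cz02g20050 at 0.407 in replicate 1 and Cz02g05050 at 0.20 in replicate 4.

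Responses that differed between groups by a test of the difference were counted in edgeR. The AZD response differed between 24 h and 1 h in 7170 genes, and between GA against Glu and AZD against S at 1 h in 798.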

How the results depend on the processing

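The count of genes changed by AZD at 1 h stayed within 1.5 times of 6549 under the alternatives run, from 5450 to 7791, except in a test against a 1.5-fold change, which called 2982. Leaving out single libraries gave 5732 to 6420. The share that rose fell below 50% with library totals alone (27.0%), no filter on low counts (44.97%), a filter of 1 CPM (46.1%), only the compared groups (45.8%) or only the 1 h libraries in the fit (43.5%) and the 1.5-fold test (45.6%). It was 55.9% with voom and 54.1% with None as control, and 45.4 to 53.3% with single libraries left out. The cause was not tested. The count for the response by time ran from 4837 to 8294, and from 6862 to 7347 with single libraries left out.

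The count of genes that differed between GA against Glu and AZD against S was the least stable. It was 798 in the main fit, 43 with only the compared groups, 207 with only the 1 h libraries, 474 with a replicate block, 2777 with voom, 21 against a 1.5-fold change, 1098 with DESeq2, 1849 without S replicate 1 with factors kept and 1540 without it and Glu replicate 4. Single libraries left out gave 299 to 1825. No pairing of samples by replicate number was seen, though so few libraries cannot exclude it. Same-numbered AZD and S libraries had correlations of deviations of -0.0526, -0.00594 and -0.114. None of the 3 AZD libraries correlated best with its own number. The replicate block gave 6194 and 6900 genes for the comparison at 1 h and the response by time. The slope of S replicate 1 was -0.217 with GA minus Glu as the axis. That axis subtracts a Glu mean that includes Glu replicate 4, which deviates like S replicate 1. This by itself pulls the slope down, so the value is no separate sign of a lean away from AZD. The log2 fold changes of the 4 named genes kept direction and call in the 17 alternatives run for each. DESeq2, voom and the 1.5-fold test were not among these. The genes were chosen for the largest changes in these data, so this is no independent support. With only the compared groups in the fit, the adjusted p in edgeR was 2.95e-05 for Cz07g15250 and 6.21e-07 for each other named gene. Depth limits genes of a few counts, whose folds rest on single libraries.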
